A study of Homo sapiens with 4 samples.

Results

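The genes described here are 45 lysosomal genes, matched by symbol in the deposited tables. They are 9 proteases, 11 glycosidases, 6 sulfatases including their activator SUMF1, 7 lipid hydrolases and activators, 1 acid phosphatase, 7 membrane proteins, 1 sorting receptor and the 3 transcription factors TFEB, TFE3 and MITF. They took 47 of the 57905 rows of the deposited tables, because IDS and CLN3 each stood on 2 rows. RNA came from A549, a human lung adenocarcinoma cell line, kept in DMEM with fetal bovine serum. One group of 2 libraries was from cells exposed for 24 h to 0.6 µM GMI, a small immunomodulatory protein from the mushroom Ganoderma microsporum, and the other group of 2 libraries was from control cells labelled with the same 24 h. What the control cells received in place of GMI is not given in the sources used here, and a single line at 1 dose and 1 time limits what the comparison covers. Whether the 2 libraries of a group were grown as independent cultures is not in the labels. The p-values therefore measure only the spread between these libraries, which may be technical.

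Lysosomes are the acidic compartments in which cells break down proteins, glycans, lipids and nucleic acids. Their soluble enzymes are made in the endoplasmic reticulum, tagged with mannose 6-phosphate in the Golgi apparatus and carried by receptors to endosomes, while glycosylated membrane proteins line the limiting membrane and transporters return the products to the cytosol. The basic helix-loop-helix factors TFEB, TFE3 and MITF (the MiT/TFE factors) bind E-box elements in the promoters of many of these genes. Rag GTPases, with folliculin as their activator, hold the factors in the cytosol when nutrients are plentiful, so that their activity is set largely by phosphorylation and location.

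Values are FPKM, in which fragments per gene are divided by its length and by the library's size. The library denominators read from the FPKM steps were 21860000 and 20880000 fragments for the GMI libraries and 20560000 and 24090000 for the control libraries, so that 1 FPKM in a gene of 2 kb stood for 41.1 to 48.2 fragments. Of 8 markers of epithelial and A549 cells, 6 reached 1 FPKM in every library, led by the keratin gene KRT8 at 1914 and 1981 FPKM in GMI libraries and 1928 and 1841 FPKM in control libraries. EPCAM (0.29 to 0.35 FPKM) and KRT19 (0.36 to 0.96 FPKM) did not reach it. The 8 summed to 4359 and 4413 FPKM in GMI libraries and 5366 and 5205 FPKM in control libraries. Of the 6, ALDH1A1, an aldehyde dehydrogenase, fell to a mean of 1079 FPKM in GMI libraries, against 1845 FPKM in control libraries (log2 fold change -0.77, limma adjusted p = 0.00104). KRT18 fell (-0.26, adjusted p = 0.0339) and AKR1C1 rose (0.56, adjusted p = 0.00539) by limma, while KRT8, CDH1 and AKR1B10 did not pass. The 5 leukocyte and macrophage markers summed to 4.78 and 3.75 FPKM in GMI libraries and 2.44 and 2.29 FPKM in control libraries, nearly all of it CD14, which rose (0.74, limma adjusted p = 0.00920). The part of these markers in the lysosomal results was not tested. The defining markers PTPRC and AIF1 were listed at 0 in all 4 libraries, the 5 fibroblast markers summed to 1.23 to 1.34 FPKM, and the 3 endothelial markers found summed to 0.03 to 0.11 FPKM. In bulk RNA, a change in the number of cells of a kind and a change in RNA per cell cannot be told apart.

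Lysosomal RNA made up a larger share of the summed FPKM in both GMI libraries than in either control library. The 47 rows together held 1.12% and 1.18% of it in GMI libraries, against 0.874% and 0.861% in control libraries. Most of that sum came from PSAP, CTSD and CD63, which held 65.2% and 66.1% of the lysosomal FPKM in GMI libraries and 64.1% and 63.1% in control libraries. All 45 genes lay at or above 1 FPKM in every library on their main row and were tested. The second row of IDS (0.10 to 0.30 FPKM) and the second row of CLN3 (listed at 0) were not.

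Of the 45 genes, 15 rose after GMI, 1 fell and 29 did not pass an adjusted p of 0.05 (limma on log2(FPKM + 1), Benjamini-Hochberg over all 11598 genes tested). Among all genes tested, 9.30% rose and 6.12% fell by the same rule. That background reaches down to lower levels than most of the 45 genes. A mean FPKM of at least 5 was met by 38 of the 45 and by 6070 genes in all. In a fit of only those, 18 of the 38 and 1003 of the 6070 rose, so that the background share was larger there. The median log2 fold change, GMI over control, was 0.19 over the 45 genes and -0.01 over all genes tested. Both GMI libraries lay above both control libraries in 31 of the 45 genes and below them in 6, where 29.8% of all genes tested lay above and 30.4% below. The gene that fell was MITF, and the 3 MiT/TFE factors were 3 of the 6 genes with both GMI libraries below the controls. Without them, 15 of 42 genes rose and 0 fell, and the median of their log2 fold changes was 0.22. At an unadjusted p under 0.05 by limma, 26 of the 42 were higher and 0 lower, where 17.2% of all genes tested were higher and 15.0% lower.

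None of the 16 calls held when 1 control library was left out. By limma, 0 of the 45 genes passed in the fit that lacked control replicate 1 and 0 in the one that lacked control replicate 2 (14 and 17 were higher at an unadjusted p under 0.05, as were 11.6% and 11.4% of all genes tested), and without GMI replicate 1 or GMI replicate 2, 9 and 7 rose. The median log2 fold change of the 45 genes lay between 0.17 and 0.20 in these 4 fits, and 34 to 36 of the 45 fold changes were positive. The fits assume that a lone library varies like the other group. Over all genes tested, fewer genes passed in each of the 4 fits as well. With no filter on low values, where 26758 genes shared the adjustment, 0 of the 45 genes passed by limma and 24 were higher at an unadjusted p under 0.05, against 8.72% of all genes.

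**Figure D1:**
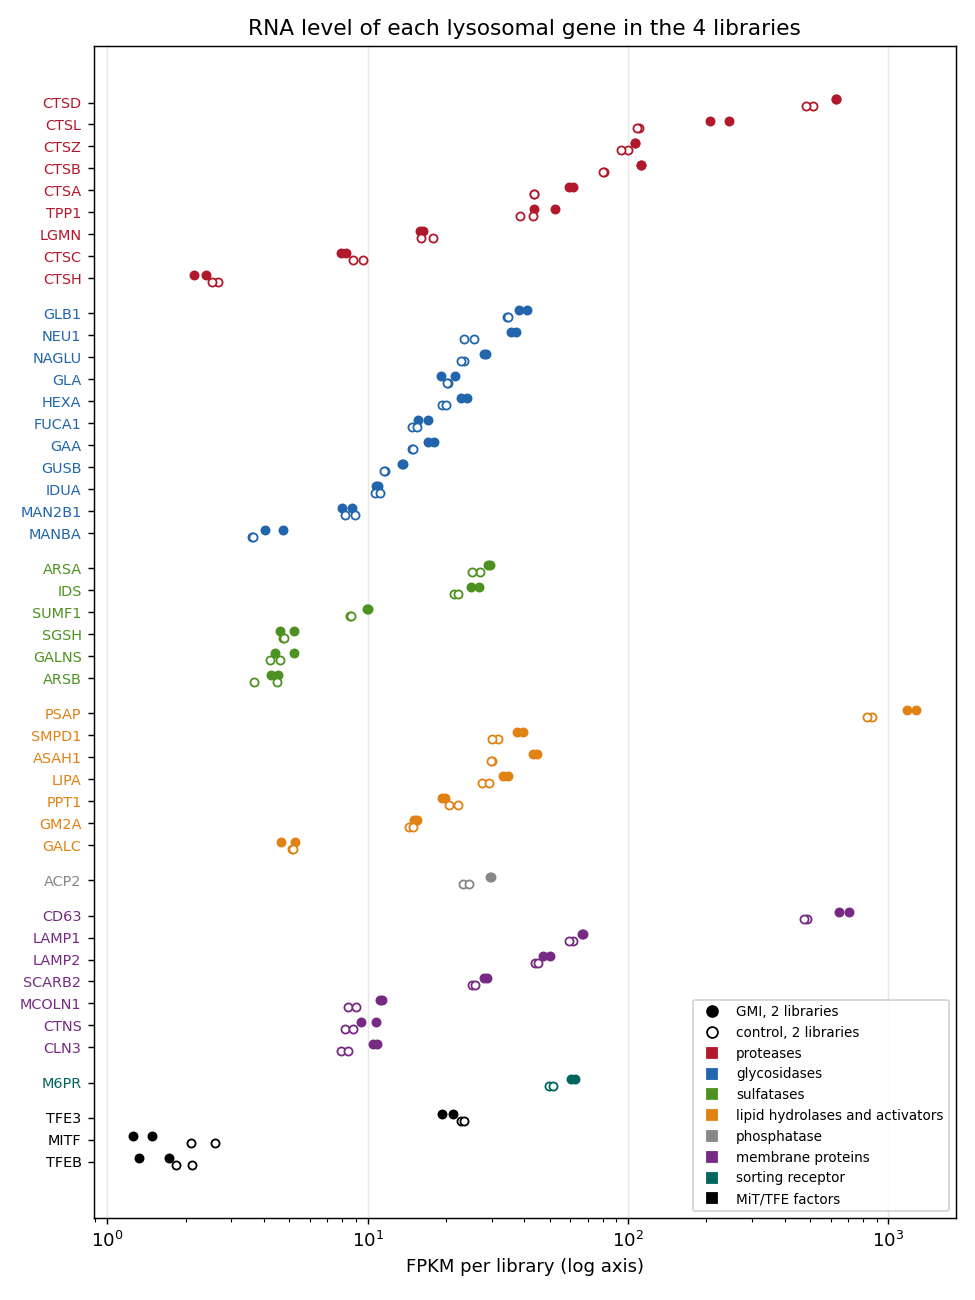
FPKM of each of the 45 lysosomal genes in each library on a log axis, with GMI libraries as filled points above control libraries as open points, grouped and coloured by role and sorted by control level. PSAP, CTSD and CD63 stand at the upper end, TFEB and MITF at the lower end. The points of the 2 groups are apart for the genes that rose, which were called in the same libraries. Of all genes tested, 29.8% had both GMI libraries above both controls.

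**Figure D2:**
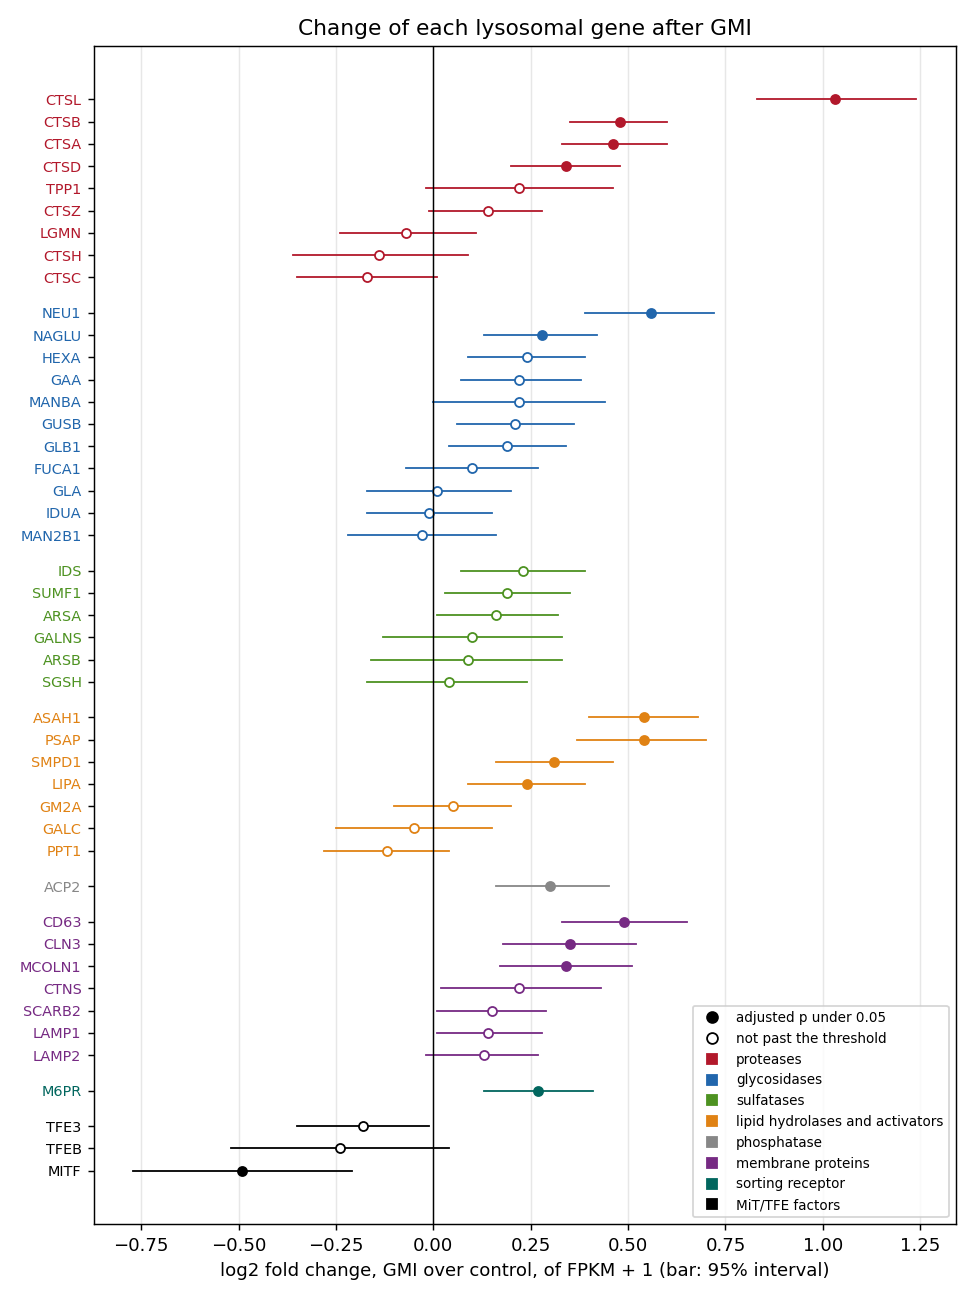
Log2 fold change of FPKM + 1, GMI over control, for each of the 45 genes with its 95% interval, grouped by role. Filled points passed an adjusted p of 0.05: 15 genes lie to the right of 0, led by CTSL at 1.03, and MITF lies to the left at -0.49.

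**Figure D3:**
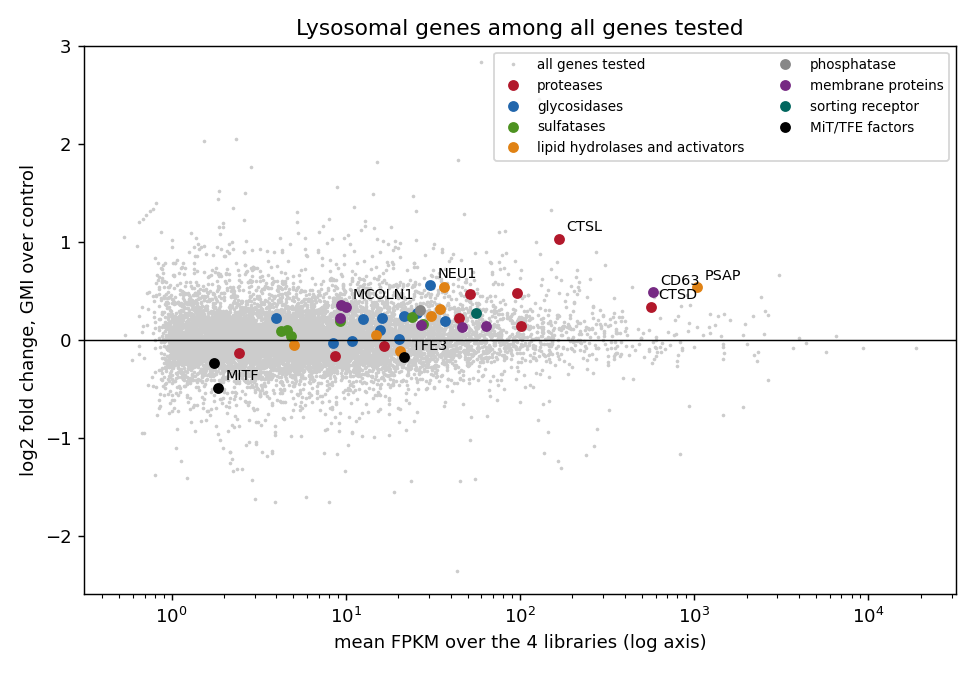
Mean FPKM over the 4 libraries (log axis) against the log2 fold change, GMI over control, for all 11598 genes tested (grey) and the 45 lysosomal genes (coloured by role). CTSL, PSAP, CD63 and CTSD are abundant and above 0, while MITF and TFE3 are below 0.

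The promoters of the genes that rose did not all carry the same letters. RefSeq promoter windows, 250 bases before to 50 after an annotated start on GRCh38.p14, matched 35 of the 45 symbols. CTSB, LGMN, HEXA, MANBA, NAGLU, ARSA, SGSH, ASAH1, PSAP and LAMP2 had no entry. The E-box core CACGTG, which reads the same on both strands, stood in a window of 12 of the 35 genes (34.3%), against 1041 of 7929 genes tested that had a window (13.1%) and 7.26% of all 35116 windows. The longer TCACGTGA, which contains CACGTG, was found in 6 of the 35 genes, against 2.4% of the 7929. TCATGTGA, searched on both strands, was found in 4 of the 35, against 1.1%. Of the 12 genes with CACGTG, 7 rose (CTSA, CTSD, NEU1, CD63, MCOLN1, CLN3 and M6PR), and GAA, GALNS, ARSB, SUMF1 and LAMP1 did not pass. Of the 23 genes without it, 4 rose (CTSL, LIPA, SMPD1 and ACP2). Among all 7929 genes, 11.1% of those with CACGTG and 8.9% of those without it rose. A match describes letters and not a bound site, and genes with several windows, such as CD63 with 8, had more chances of one.

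The 200 bases before the start are shown for 4 genes with CACGTG that rose, for LAMP1, which has 6 copies in its window, 5 of them within the stretch shown, and did not pass, and for CTSL, which rose most and has none. Each is written 5′ to 3′ on the strand of the gene with GRCh38.p14 coordinates, from RefSeq, and capitals mark CACGTG or TCACGTGA:
CTSA (chr20:45891135-45891334, plus strand): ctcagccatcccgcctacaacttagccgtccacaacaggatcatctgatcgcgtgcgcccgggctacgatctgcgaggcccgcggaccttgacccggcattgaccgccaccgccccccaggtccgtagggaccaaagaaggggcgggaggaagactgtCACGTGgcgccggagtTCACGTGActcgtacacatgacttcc
NEU1 (chr6:31862822-31863021, minus strand): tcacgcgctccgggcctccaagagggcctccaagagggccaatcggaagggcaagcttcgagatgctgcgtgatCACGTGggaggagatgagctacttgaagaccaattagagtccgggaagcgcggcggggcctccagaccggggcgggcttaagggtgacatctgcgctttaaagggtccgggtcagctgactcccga
CTSD (chr11:1763928-1764127, minus strand): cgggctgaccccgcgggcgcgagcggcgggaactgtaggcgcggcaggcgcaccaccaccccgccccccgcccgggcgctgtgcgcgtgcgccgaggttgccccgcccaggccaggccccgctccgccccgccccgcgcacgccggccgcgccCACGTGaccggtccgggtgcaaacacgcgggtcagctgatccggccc
MCOLN1 (chr19:7522424-7522623, plus strand): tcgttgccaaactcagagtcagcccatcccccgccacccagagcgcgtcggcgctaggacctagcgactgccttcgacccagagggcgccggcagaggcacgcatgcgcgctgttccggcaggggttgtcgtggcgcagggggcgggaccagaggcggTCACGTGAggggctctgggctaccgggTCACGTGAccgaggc
LAMP1 (chr13:113297039-113297238, plus strand): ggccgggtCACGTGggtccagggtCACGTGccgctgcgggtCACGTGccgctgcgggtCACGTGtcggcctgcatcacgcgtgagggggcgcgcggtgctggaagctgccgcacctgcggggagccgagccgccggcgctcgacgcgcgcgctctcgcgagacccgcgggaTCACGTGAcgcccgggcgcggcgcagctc
CTSL (chr9:87725919-87726118, plus strand): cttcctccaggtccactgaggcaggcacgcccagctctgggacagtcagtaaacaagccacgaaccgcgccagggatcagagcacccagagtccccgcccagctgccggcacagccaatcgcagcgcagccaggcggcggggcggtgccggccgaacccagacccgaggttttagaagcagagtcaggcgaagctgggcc

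Counted from the start to the first base of the motif, the 2 copies of CTSA lie at -42 and -25, those of MCOLN1 at -41 and -14, and the single copies of CTSD and NEU1 at -47 and -126. LAMP1 has copies at -192, -176, -159 and -142 besides those at -28 and -1.

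**Figure D4:**
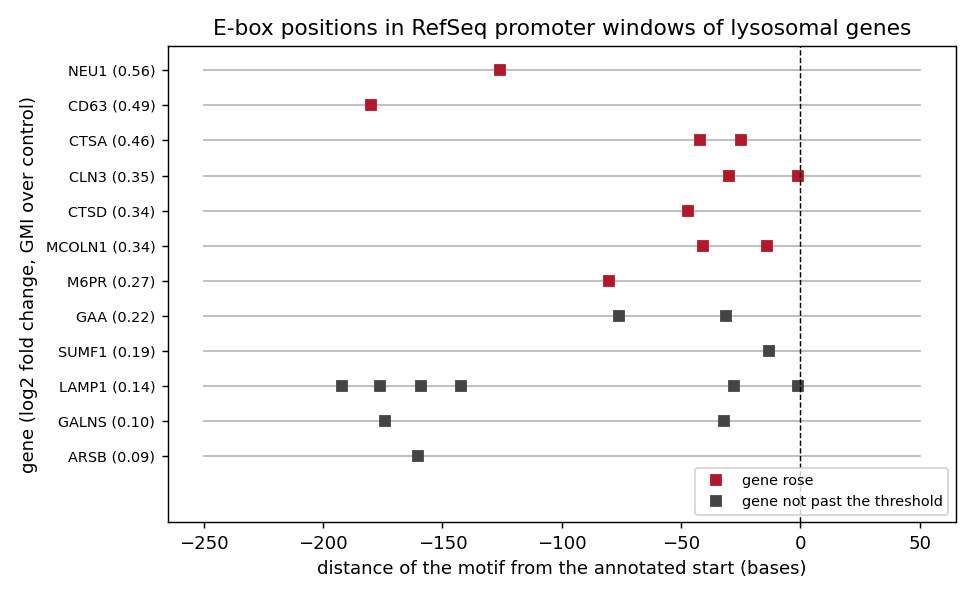
Positions of the first base of each CACGTG motif relative to the annotated start for the 12 lysosomal genes that have one, sorted by log2 fold change (in brackets), with 1 RefSeq window per gene drawn as a line from 250 bases before to 50 bases after the start. Genes that rose and genes that did not pass both have motifs near the start, and LAMP1 has the most copies, 6.

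Of the 9 proteases, CTSL, CTSB, CTSD and CTSA rose (44.4%, against 9.30% of all genes tested). CTSL, a cysteine endopeptidase, had 206 and 244 FPKM in GMI libraries and 110 and 108 FPKM in control libraries. The GMI values were 2.06 times the control values on average, with the 2 GMI libraries further apart than the 2 controls. On the log2 scale the difference was 1.03 (SE 0.085, limma adjusted p = 0.00131), and 51 of the 11598 genes tested, CTSL included, had one at least as high. The 8 CTSL pseudogenes listed reached at most 0.25 FPKM.

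CTSB, another cysteine protease, had 112 and 112 FPKM in GMI libraries and 80.8 and 80.2 FPKM in control libraries (log2 fold change 0.48, SE 0.053, limma adjusted p = 0.00319). CTSD, the main aspartic protease of the lysosome, had 627 and 629 FPKM in GMI libraries and 512 and 481 FPKM in control libraries (0.34 on the log2 scale, SE 0.060, limma adjusted p = 0.0137). CTSA, a serine carboxypeptidase that also shields the sialidase NEU1 and the galactosidase GLB1 in a complex, had 59.2 and 61.7 FPKM in GMI libraries and 43.6 and 43.4 FPKM in control libraries (0.46, SE 0.057, adjusted p = 0.00427). These 4 proteases, named because they passed in the same libraries, had both GMI libraries above both controls, as had 29.8% of all genes tested. Other genes cover 52.7% of the exon bases of CTSD and 28.5% of those of CTSA in GENCODE 29, and fragments of overlapping genes cannot be told apart here.

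The other 5 proteases are those that did not pass, and none had an unadjusted p under 0.05 by limma. Set apart by that rule, they had fold changes of both signs. TPP1, a tripeptidyl peptidase, had 52.5 and 43.6 FPKM in GMI libraries and 38.6 and 43.2 FPKM in control libraries, so that GMI replicate 2 nearly met control replicate 2. CTSZ, a carboxypeptidase, averaged 106 ± 0.00707 FPKM in GMI libraries and 96.8 ± 4.57 FPKM in control libraries (SD, n = 2 each), and the 95% interval of its log2 fold change ran from -0.01 to 0.28. LGMN, the asparaginyl endopeptidase that processes other cathepsins, had a log2 fold change of -0.07 with overlapping groups. CTSC, a dipeptidyl peptidase, had 7.88 and 8.26 FPKM in GMI libraries and 9.58 and 8.78 FPKM in control libraries. Its interval ran from -0.35 to 0.01, and that of the aminopeptidase gene CTSH, the least abundant protease at 2.15 to 2.67 FPKM, from -0.36 to 0.09.

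Among the 11 glycosidases NEU1 and NAGLU rose (18.2%, against 9.30% of all genes tested). At an unadjusted p under 0.05 by limma 7 were higher, against 17.2% of all genes tested, and 0 were lower by either rule. The median log2 fold change of the 11 was 0.21. NEU1, the lysosomal sialidase, had 35.7 and 37.3 FPKM in GMI libraries and 25.6 and 23.4 FPKM in control libraries. Its GMI values were 1.49 times the control values (0.56 on the log2 scale, SE 0.068, limma adjusted p = 0.00419). NAGLU, which removes N-acetylglucosamine from heparan sulfate, had 28.0 and 28.4 FPKM in GMI libraries and 23.5 and 22.8 FPKM in control libraries (0.28, SE 0.059, adjusted p = 0.0260), but did not pass with no mean-variance trend (limma adjusted p = 0.0583).

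GLB1, the β-galactosidase held in the complex with CTSA and NEU1, was the most abundant glycosidase. It had 41.0 and 38.1 FPKM in GMI libraries and 34.3 and 34.6 FPKM in control libraries and did not pass (log2 fold change 0.19, 95% interval 0.04 to 0.34, limma adjusted p = 0.0863). HEXA, a hexosaminidase subunit (0.24, adjusted p = 0.0524), GAA, which degrades glycogen (0.22, adjusted p = 0.0614), and GUSB, the β-glucuronidase (0.21, adjusted p = 0.0726), stood close to the threshold by limma. Each had both GMI libraries above both controls, as had 29.8% of all genes tested. GUSB has 11 pseudogenes listed, none above 0.85 FPKM. MANBA, the β-mannosidase, had a log2 fold change of 0.22 and the fucosidase gene FUCA1 one of 0.10. GLA, the α-galactosidase, MAN2B1, the α-mannosidase, and IDUA, the iduronidase, had overlapping groups with log2 fold changes of 0.01, -0.03 and -0.01 and intervals that reached 0.20 at most.

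Of the 6 sulfatase genes 0 passed, where 9.30% of all genes tested rose and 6.12% fell. All 6 fold changes were positive and lay between 0.04 and 0.23 on the log2 scale. At an unadjusted p under 0.05 by limma 3 of them, IDS, ARSA and SUMF1, were higher, as were 17.2% of all genes tested. IDS, an iduronate sulfatase, had 24.9 and 26.7 FPKM in GMI libraries and 21.4 and 22.3 FPKM in control libraries (0.23, 95% interval 0.07 to 0.39, adjusted p = 0.0616). ARSA, which desulfates sulfatide, had 28.9 and 29.6 FPKM in GMI libraries and 27.0 and 25.1 FPKM in control libraries (0.16, interval 0.01 to 0.32). SUMF1, the enzyme of the endoplasmic reticulum that makes the catalytic residue of all sulfatases, averaged 9.98 ± 0.0212 FPKM in GMI libraries and 8.61 ± 0.0424 FPKM in control libraries (SD, n = 2 each). GALNS, ARSB and SGSH, at 3.65 to 5.23 FPKM, had overlapping groups.

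Lipid breakdown genes divided into 4 that rose (57.1%, against 9.30% of all genes tested) and 3 that did not pass. PSAP, the precursor of the saposins that present sphingolipids to their hydrolases, was the most abundant of the 45 genes. It had 1174 and 1279 FPKM in GMI libraries and 867 and 824 FPKM in control libraries (log2 fold change 0.54, SE 0.069, limma adjusted p = 0.00495). ASAH1, acid ceramidase, had 43.1 and 44.7 FPKM in GMI libraries and 29.9 and 29.7 FPKM in control libraries (0.54, SE 0.058, adjusted p = 0.00266). The 2 genes thus had GMI values 1.45 and 1.47 times their control values.

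SMPD1, acid sphingomyelinase, which makes the ceramide that ASAH1 cleaves, had 37.6 and 39.5 FPKM in GMI libraries and 31.6 and 30.1 FPKM in control libraries (0.31, SE 0.062, limma adjusted p = 0.0211). LIPA, the acid lipase of cholesteryl esters and triglycerides, had 33.0 and 34.5 FPKM in GMI libraries and 27.5 and 29.2 FPKM in control libraries. Its log2 fold change of 0.24 (SE 0.064, adjusted p = 0.0492) was the weakest call among the 15. Among the 9 alternative fits that kept every library, LIPA passed in 2, with median centring and at a mean FPKM of at least 5. Among those it failed by limma were a pseudocount of 0.1 (adjusted p = 0.0526), quantile normalization (adjusted p = 0.0959) and no mean-variance trend (adjusted p = 0.0947). GALC, which cleaves galactosylceramide, had a log2 fold change of -0.05, the ganglioside activator gene GM2A one of 0.05, and the thioesterase gene PPT1 one of -0.12 with an interval from -0.28 to 0.04. ACP2, the lysosomal acid phosphatase, rose, with 29.9 and 29.5 FPKM in GMI libraries and 23.3 and 24.5 FPKM in control libraries (0.30, SE 0.061, adjusted p = 0.0222). With no mean-variance trend, SMPD1 and ACP2 just missed the threshold (limma adjusted p = 0.0507 and 0.0514).

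All 7 membrane protein genes had both GMI libraries above both controls, as had 29.8% of all genes tested. Of the 7, 3 rose (42.9%, against 9.30% of all genes tested). CD63, a tetraspanin of late endosomes, lysosomes and exosomes, had 644 and 706 FPKM in GMI libraries and 487 and 475 FPKM in control libraries (log2 fold change 0.49, SE 0.066, limma adjusted p = 0.00594). MCOLN1, a calcium-permeable channel of the lysosomal membrane, had 11.2 and 11.4 FPKM in GMI libraries and 8.41 and 9.01 FPKM in control libraries (0.34, SE 0.070, adjusted p = 0.0236). CLN3, a membrane protein mutated in juvenile Batten disease, had 10.9 and 10.4 FPKM in GMI libraries and 7.87 and 8.44 FPKM in control libraries (0.35, SE 0.072, adjusted p = 0.0231). Neither MCOLN1 nor CLN3 passed in any fit that left out a library. Other genes cover 30.9% of the exon bases of CLN3 in GENCODE 29.

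The structural glycoproteins of the membrane had smaller differences. LAMP1 had 67.1 and 66.5 FPKM in GMI libraries and 61.6 and 59.3 FPKM in control libraries, a log2 fold change of 0.14 with an interval from 0.01 to 0.28 (limma adjusted p = 0.138). LAMP2 had one of 0.13 and SCARB2, which carries glucocerebrosidase to lysosomes, one of 0.15, with intervals that ended at 0.27 and 0.29. CTNS, the cystine exporter, had a log2 fold change of 0.22 (interval 0.02 to 0.43). M6PR, the smaller of the receptors that carry enzymes tagged with mannose 6-phosphate, rose and had 62.5 and 60.5 FPKM in GMI libraries and 49.8 and 51.7 FPKM in control libraries (0.27, SE 0.058, adjusted p = 0.0255). It did not pass with quantile normalization (limma adjusted p = 0.0726) or with no mean-variance trend (limma adjusted p = 0.0636). Opposite-strand exons of PHC1 cover 29.3% of its exon bases.

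Of the MiT/TFE factors, MITF fell, and TFE3 and TFEB did not pass. TFE3 was the most abundant of the 3, at 21.3 and 19.3 FPKM in GMI libraries and 22.8 and 23.4 FPKM in control libraries (log2 fold change -0.18, 95% interval -0.35 to -0.01, limma adjusted p = 0.134). TFEB had 1.72 and 1.33 FPKM in GMI libraries and 2.11 and 1.84 FPKM in control libraries (-0.24, interval -0.52 to 0.04, adjusted p = 0.213). MITF had 1.26 and 1.49 FPKM in GMI libraries and 2.09 and 2.59 FPKM in control libraries, and it fell (-0.49, interval -0.77 to -0.21, adjusted p = 0.0354). In each of the 3 genes both GMI libraries were below both controls, as in 30.4% of all genes tested. The fold changes stayed negative in every alternative fit in which the genes were tested, but these fits reuse the same libraries. At a mean FPKM of at least 5, TFEB and MITF were not tested. About 157 to 250 fragments per library stood behind TFEB and about 198 to 448 behind MITF, by gene lengths of GENCODE 29. With 1 library left out, the log2 fold change of MITF ran from -0.6 to -0.38. MITF did not pass in any of these fits or with no filter on low values. The same holds for NAGLU, LIPA, ACP2, MCOLN1, CLN3 and M6PR, which rose in the main fit.

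Genes that place these factors under control of the Rag GTPases were higher in part. Of 13 genes listed, which include the further family member TFEC, 11 were tested. Of these, 6 rose (54.5%, against 9.30% of all genes tested) and 0 fell by limma. At an unadjusted p under 0.05 by limma 0 of them were lower, against 15.0% of all genes tested. The median of their log2 fold changes was 0.30. RRAGD, a Rag GTPase gene known as a target of the MiT/TFE factors, had 4.61 and 5.49 FPKM in GMI libraries and 2.78 and 3.22 FPKM in control libraries (0.60, limma adjusted p = 0.0142). FLCN, folliculin, had 4.31 and 4.46 FPKM in GMI libraries and 2.73 and 2.76 FPKM in control libraries (0.52, adjusted p = 0.00887). Its partner gene FNIP1 had 3.61 and 4.42 FPKM in GMI libraries and 2.42 and 2.65 FPKM in control libraries (0.50, adjusted p = 0.0253).

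RRAGC (0.47, with 22.9% of its exon bases shared with other genes), the Ragulator subunit gene LAMTOR5 (0.42) and RRAGB (0.30) rose as well. RRAGB did not pass with equal summed FPKM (limma adjusted p = 0.0565) or with no mean-variance trend (limma adjusted p = 0.0636). RRAGA, the most abundant Rag gene, had 74.7 and 80.7 FPKM in GMI libraries and 67.5 and 64.9 FPKM in control libraries and did not pass (limma adjusted p = 0.0576). FNIP2 and the fourth family member TFEC lay below the filter.

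**Figure D5:**
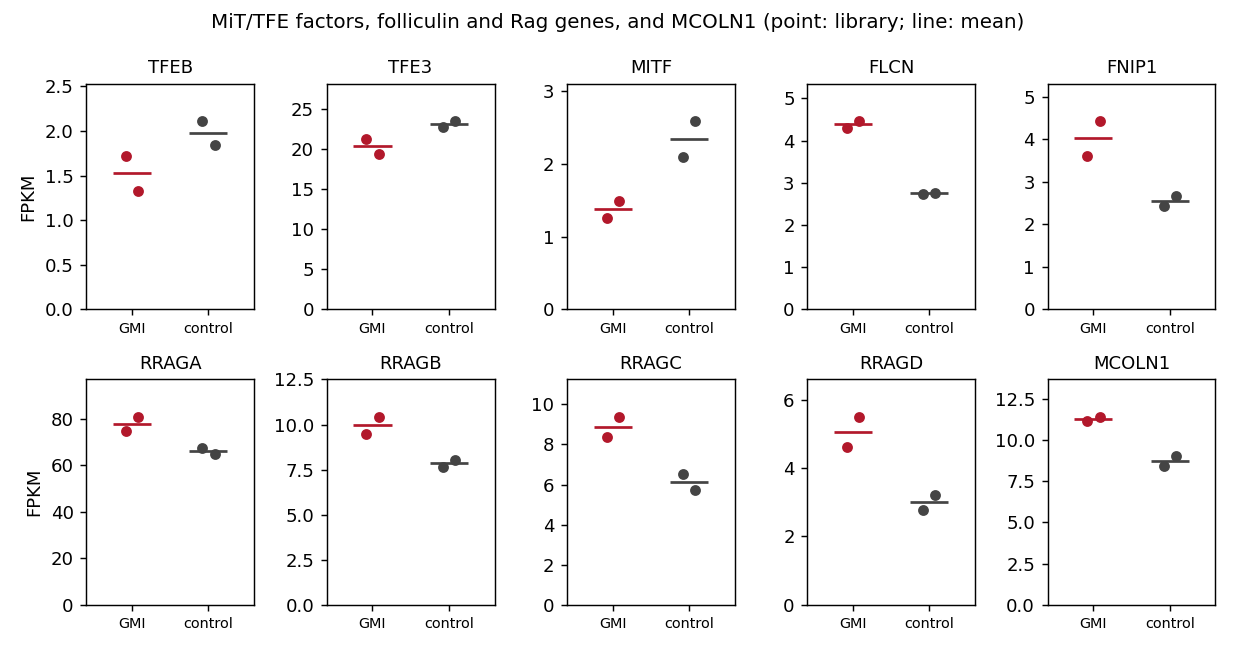
FPKM per library (points) and group mean (lines), on axes that start at 0, for the MiT/TFE factors, folliculin, FNIP1, the Rag GTPase genes and MCOLN1, with GMI left of control. The 3 factors have lower values in GMI libraries and the other 7 genes higher ones, with no overlap between the groups in any panel. Of all genes tested, 29.8% had both GMI libraries above both controls and 30.4% had both below. TFEB, TFE3 and RRAGA did not pass the threshold.

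Of 38 further lysosome genes 34 were tested. Among them 10 rose (29.4%, against 9.30% of all genes tested), 24 did not pass and 0 fell by limma, where 6.12% of all genes fell. At an unadjusted p under 0.05 by limma, 0 were lower, against 15.0% of all genes tested. The median log2 fold change of the 34 was 0.14. SLC17A5, the exporter of the sialic acid that NEU1 releases, had 23.4 and 26.4 FPKM in GMI libraries and 12.2 and 13.2 FPKM in control libraries (0.92, limma adjusted p = 0.00152). NPC1, which exports cholesterol, had 21.42 and 20.02 FPKM in GMI libraries and 10.36 and 10.98 FPKM in control libraries (0.90, adjusted p = 0.00110). PLA2G15, a lysosomal phospholipase, had 20.5 and 20.3 FPKM in GMI libraries and 12.6 and 12.2 FPKM in control libraries (0.68, adjusted p = 0.00163). GRN, progranulin, a lysosomal cofactor, had a log2 fold change of 0.59, and the cysteine protease genes CTSF and CTSS had 0.43 and 0.40, all past the threshold.

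Of 12 genes that tag or carry enzymes to lysosomes, 1 rose, a share of 8.3% that lies near the 9.30% of all genes. It was GNPTG, a subunit of the phosphotransferase that makes the mannose 6-phosphate tag (0.37, limma adjusted p = 0.0145), with 30.9% of its exon bases shared with other genes. The larger receptor gene IGF2R did not pass (0.34, adjusted p = 0.0725). Of 8 cystatin genes, which encode inhibitors of cysteine cathepsins, 3 were tested. CSTB, the cytosolic cystatin B, rose, with 231 and 244 FPKM in GMI libraries and 176 and 161 FPKM in control libraries (0.49, adjusted p = 0.00611). The secreted cystatin C gene CST3 had 228 and 227 FPKM in GMI libraries and 206 and 197 FPKM in control libraries and did not pass (0.18, adjusted p = 0.0803), nor did CSTA (-0.26, adjusted p = 0.200). Of the 18 genes of the Rag, further lysosome, delivery and cystatin lists that passed, 0 and 0 passed without control replicate 1 or 2, and 17 and 8 without GMI replicate 1 or 2.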

How the data were processed

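Total RNA of A549 cells was sequenced in 2 GMI and 2 control libraries, grouped by their titles. The authors deposited FPKM per Ensembl gene to 2 decimals, 1 table per library. The genome build was GRCh37, and the tools were HTSeq 0.6.1, HISAT2 2.0.1, cutadapt 1.9.1 and bcl2fastq 2.17.1.14, per the submitters' processing notes. Strand setting, annotation release and gene lengths: not given in the sources used here.

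Genes with at least 1 FPKM in at least 2 of the 4 libraries were fitted with limma 3.58.1 in R 4.3.3 on log2(FPKM + 1), without covariates and with the prior variance trended on mean level, and adjusted by Benjamini-Hochberg over all 11598 of them. Fold changes on this scale understate those of genes with low FPKM. Intervals are 95% from the moderated fit. The procedure was tested on simulated data. Tables were made with pandas 2.3.3 and numpy 2.4.6 in Python 3.11.15.

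Depth came from the FPKM of genes of at most 200 nt and below 20 FPKM, of which 95.8% to 96.8% were whole multiples of 1 fragment within 0.006 FPKM, against 2.8% to 3.2% by chance. It used GENCODE 29 lengths, which are on another build and gave no coordinates. Chi-square per degree of freedom was 9.58 between the GMI libraries and 4.86 between the controls, more than sampling noise gives. Each library was counted as its own sample, but this excess does not show that the libraries came from independent cultures. Deviations of same-numbered libraries correlated at -0.04 across 11598 genes, so the numbers were not taken to pair them.

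The 45 genes and the further lists were chosen with earlier results of these data known. Every library's value is given for genes past the threshold with a log2 fold change of at least 0.3 in size, for MiT/TFE factors and for the 2 most abundant genes of each role. From each further list up to 6 genes past the threshold are named, and other genes are named where they sit beside these in a pathway. Promoter sequences are RefSeq's on GRCh38.p14. Alternatives were other pseudocounts, filters, scalings and variance models, a replicate block and leaving out each library.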

Additional observations from a re-analysis of the deposited data

How the results depend on the processing

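The 15 genes that rose kept a positive fold change in every alternative fit, and MITF a negative one in each in which it was tested. Split by direction over all genes, 1079 rose and 710 fell, against 986 and 818 with equal summed FPKM and 1006 and 857 with quantile normalization. The number of members that rose was 13 to 15 with a pseudocount of 0.1 or 0.5, equal summed FPKM, quantile normalization or median centring. It was 10 with no mean-variance trend (LIPA, M6PR, NAGLU, SMPD1 and ACP2 dropped out). At a mean FPKM of at least 5, 18 of the 38 members tested rose, and GAA, HEXA and IDS joined. In that fit 1003 of all 6070 genes tested rose, a larger share than in the main fit. With no filter on low values, 0 members rose and 0 fell by limma (24 were higher at an unadjusted p under 0.05, against 8.72% of all genes), and over 26758 genes 0 rose and 1 fell (4500 at an unadjusted p under 0.05). At a mean FPKM of at least 5, 0 members fell, because MITF was not tested there.

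Leaving out 1 library gave 0 to 9 members that rose and 0 that fell in each of the 4 fits, and 28 to 856 genes that rose and 17 to 513 that fell over all genes. Of the members, 0 passed without control replicate 1 and 0 without control replicate 2. The cause was not tested. Numbers alone gave no pairing of libraries: with the replicate block, 14 members rose and 1 fell, and LIPA lost its call (1191 genes rose and 809 fell in all).

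The median log2 fold change of the 45 genes was 0.21 and 0.20 with pseudocounts of 0.1 and 0.5, 0.22 at a mean FPKM of at least 5, 0.17 with equal summed FPKM, 0.16 with quantile normalization, 0.20 with median centring, and 0.17 to 0.20 with 1 library left out. Signs turned only in 8 genes that had not passed, all close to 0. GLA had -0.01 with equal summed FPKM and -0.02 with quantile normalization. With 1 library left out, the log2 fold change ran from -0.08 to 0.10 in GLA, -0.14 to 0.01 in LGMN, -0.09 to 0.02 in MAN2B1, -0.04 to 0.02 in IDUA, 0.00 to 0.20 in GALNS, -0.03 to 0.21 in ARSB, -0.04 to 0.11 in SGSH and -0.13 to 0.03 in GALC. Depth limits TFEB and MITF most.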
